A study of Mus musculus with 9 samples.

Results

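Cardiomyocyte nuclei of mice that lack both estrogen-related receptors at postnatal days 9 to 10 were compared with those of control mice at postnatal day 6. The question was which genes leave the level of the younger heart without the receptors and which do not. The knockouts (KO P10) were labelled ERRalphaKO/ERRgammaKO and the controls ERRalphaHet/ERRgammaWT, so that the controls carried 1 ERRα allele fewer than wild type. Mice of both groups were C57BL6/J, the tissue was ventricle, and the sex was labelled as not determined. There were 3 libraries in each group, out of 9 in the series, while 3 more held controls aged 9 to 10 days (control P10). Each library was made by Drop-seq of single nuclei, which captures poly(A) RNA of a nucleus on a barcoded bead and counts molecules by unique molecular identifiers (UMIs). Ventricles were processed fresh or frozen, and the labels do not say which library was which, nor which exons of the genes were deleted, nor whether a library came from 1 heart. The p-values therefore measure the spread between libraries, which may be in part technical.

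A nucleus entered the comparison if its barcode had at least 500 UMIs outside mitochondrially encoded genes, at least 3% of them from the nuclear RNA Malat1, and at least 3 UMIs summed over the cardiomyocyte genes Ryr2, Ctnna3, Rbm20 and Fgf13. This gate held 7516 of the 21000 barcodes of the 6 libraries. The control P6 libraries 1 to 3 gave 1066, 1386 and 1279 gated nuclei and the KO P10 libraries 1014, 1514 and 1257. A further 2018 nuclei of these libraries passed the first pair of requirements with 0 UMIs over the 4 genes and are called marker-negative nuclei. UMIs were summed per gene and library, and levels are CPM, UMIs scaled to a common library total. Differences are on the log2 scale, with ± for the standard error.

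ERRα and ERRγ, listed as Esrra and Esrrg, are orphan nuclear receptors that bind DNA without a known natural hormone and act together with the coactivators PGC-1α and PGC-1β. They are known for switching on genes of fatty acid oxidation, the tricarboxylic acid cycle and the respiratory chain. In the first weeks after birth the heart changes from glucose and lactate to fatty acids as its main fuel, stops dividing its muscle cells, and exchanges fetal isoforms of contractile proteins and channels for adult ones.

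The gated sums held 1336421, 1884064 and 1268934 UMIs in control P6 and 1433216, 1937743 and 1464147 in KO P10, with median depths of 842 to 1079 UMIs a nucleus. Markers of cardiomyocytes that the gate did not use (Ttn, Myh6, Actc1, Tnnt2, Pln, Myom1, Ldb3 and Corin) made up 3.46% to 4.05% of gated UMIs in control P6 and 3.60% to 5.39% in KO P10, and 0 of the 8 was at 0 in any library. Fibroblast markers made up 0.202% to 0.251% in control P6 and 0.232% to 0.592% in KO P10, and erythroid markers, almost all hemoglobin, 0.168% to 0.199% and 0.281% to 1.10%. Markers of the atrium, among them Nppa and Myl7, made up 0.0218% to 0.0934% and 0.275% to 1.52%, and most of these UMIs were of Nppa alone. Malat1 took 14.4% to 18.3% of gated UMIs in control P6 and 6.30% to 13.5% in KO P10, and mitochondrially encoded RNA, left out of the sums, 0.598% to 1.66% and 5.58% to 11.4%. By Xist and Y-linked UMIs the 3 control P6 libraries, control P10 library 1 and KO P10 library 1 were of 1 kind, rich in Xist, and KO P10 libraries 2 and 3 of the other, so sex and group were partly confounded. A fit of those 5 Xist-rich libraries alone is given for each list, with the genes described whose calls it ended. KO P10 and control P10 have 1 library each in it, so its spread comes from the 3 control P6 libraries alone. Its calls assume that KO P10 library 1 varies like those, and its counts are descriptive. A fit that left out nuclei with 2 or more UMIs of other lineages (erythroid markers not counted), chosen after seeing the data, is given where it ended the call of a gene described or moved a list's count by over 1.5 times. It kept 694, 897 and 903 gated nuclei in control P6 and 145, 645 and 355 in KO P10, so it cut the groups unequally. KO P10 libraries 1 and 2 shared 465 barcodes, and those of library 2 were left out, which removed 137 gated nuclei.

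**Figure D1:**
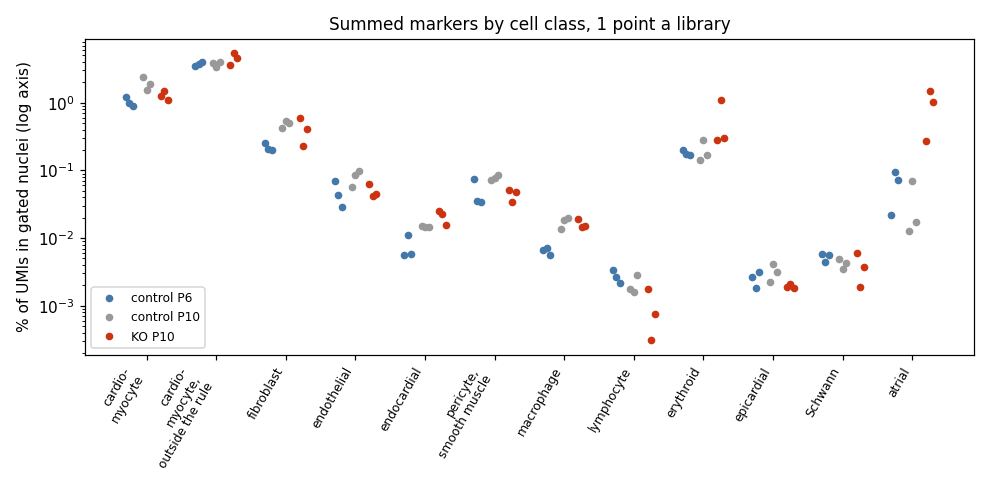
Share of the UMIs of gated nuclei (%, log axis) that came from the markers of 12 cell classes, with 1 point for each of the 9 libraries and colours for the 3 groups. The atrial list, most of whose UMIs were of Nppa alone, reached 0.275% to 1.52% in KO P10 against 0.0218% to 0.0934% in control P6. The cardiomyocyte genes outside the gate stayed between 3.33% and 5.39% in all 9 libraries.

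Esrra (chr19:6910977-6921813, GRCm38) was measured at 79.96, 121 and 115 CPM in control P6, 92.8, 83.5 and 58.3 in control P10 and 8.49, 24.4 and 18.6 in KO P10. Every KO P10 library lay under every control library, 6.12-fold lower than control P6 on average (log2 -2.61 ± 0.33, adjusted p = 0.000183), and the sums held 106, 233 and 153 UMIs in control P6 and 13, 40 and 26 in KO P10. In the fit of Xist-rich libraries the difference of Esrra was -3.60. Esrrg (chr1:187608791-188214885) was at 515, 757 and 481 CPM in control P6, 1709.8, 979.8 and 1183 in control P10 and 843, 643 and 718 in KO P10, and the KO P10 and control P6 libraries overlapped. Esrrg differed by 0.33 ± 0.28 on the log2 scale (adjusted p = 0.438), 95% interval -0.27 to 0.93. Which exons were deleted and whether intronic reads were counted are not given in the sources used here, so the level of Esrrg neither checks nor contradicts its deletion. Control P10 was above control P6 for Esrrg (log2 1.14 ± 0.29, adjusted p = 0.0123), and KO P10 against control P10 missed the threshold (log2 -0.81 ± 0.28, adjusted p = 0.0876).

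Of 12095 genes tested, 1096 (9.06%) were higher and 1464 (12.1%) lower in KO P10 than in control P6 at an adjusted p under 0.05 (edgeR's quasi-likelihood test with Benjamini-Hochberg adjustment). With upper-quartile in place of TMM scaling the median of all genes moved by -0.11 and the counts were 808 higher and 1696 lower, so that rises made up 32.3% of the calls in place of 42.8%. Under that scaling falls outnumbered rises in 4 lists that had more rises with TMM: glycolysis (3 rises, 4 falls), ion channels (3 and 4), splicing factors (3 and 4) and contractile genes (3 and 5). Leaving out 1 library moved the number of higher genes to 607 (without control P6 library 2) and 570 (without control P6 library 3), and the number of lower genes to 945 (without control P6 library 2). For orientation, values of control P10 against control P6 (8.96% of genes higher, 10.8% lower, 19.7% either way) and of KO P10 against control P10 (4.27% higher, 4.37% lower, 8.65% either way) stand beside those of the main comparison. They come from the same fit and share libraries with it, so they are set side by side only. Members of 20 gene lists, with 550 of 599 genes tested, are described by group, and a list's median log2 difference stands against the median of 0.01 over all genes tested. Over the same genes the median was -0.013 in the Xist-rich libraries and -0.007 without nuclei of other lineages. The latter fit called 563 genes higher and 730 lower of 8346 tested. The 9.06% and 12.1% of the main fit apply to neither. No share over all genes stands beside the counts of the Xist-rich fit, so they do not show how a list compares with all genes.

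**Figure D2:**
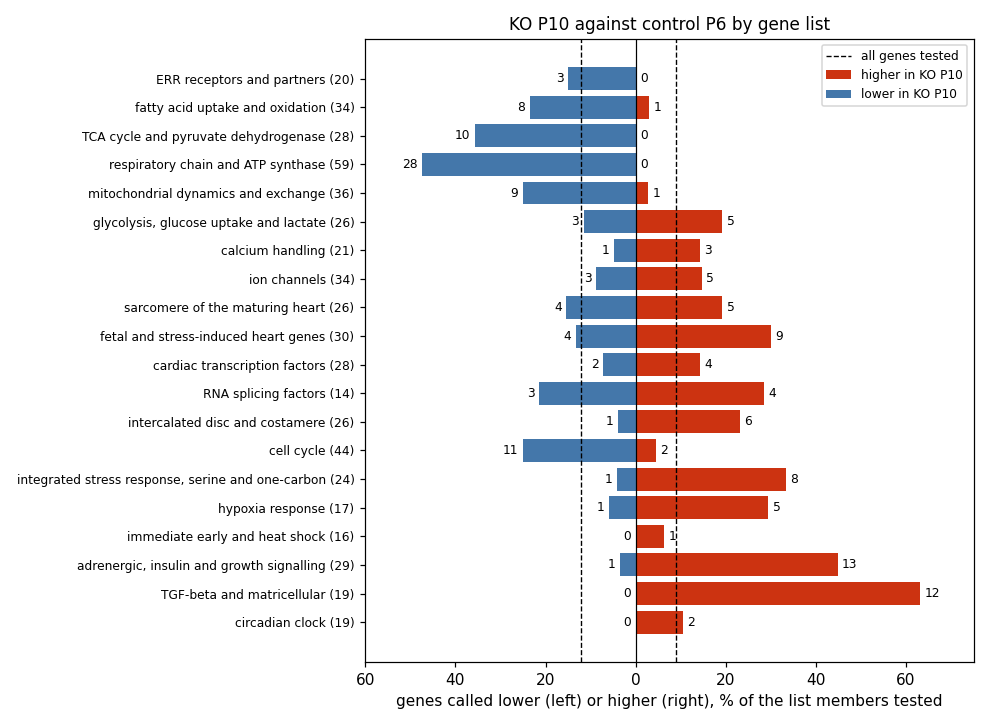
Members of 20 gene lists that were lower (left) or higher (right) in KO P10 than in control P6, as a percentage of the members tested (number in brackets), with the number of genes at the bar ends and dashed lines at the 12.1% and 9.06% of all genes tested. The lists of the tricarboxylic acid cycle and respiratory chain had 10 and 28 members lower and 0 higher, and the TGF-beta and matricellular list 12 higher and 0 lower.

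In each of 4 lists of mitochondrial energy metabolism more genes fell than rose in the full fit. For mitochondrial dynamics that order turned without KO P10 library 1, with 4 rises and 2 falls. Of 59 genes of the respiratory chain and ATP synthase, 28 fell and 0 rose (median -0.75), and the libraries did not overlap for 40 of them on the lower side, against 19.4% of all genes. Of 28 genes of the tricarboxylic acid cycle and the pyruvate dehydrogenase complex, 10 fell and 0 rose (median -0.52). Of 34 genes of fatty acid uptake and oxidation, 8 fell and 1 rose (median -0.30), and of 36 genes of mitochondrial dynamics, exchange and creatine or adenylate kinase shuttles, 9 fell and 1 rose (median -0.40). Control P10 against control P6 gave for the same 4 lists 10, 2, 1 and 3 falls and 0, 0, 1 and 3 rises. The respiratory chain falls numbered 16 without KO P10 library 1, 17 without control P6 library 2 and 15 without control P6 library 3. Falls of the tricarboxylic acid cycle numbered 6 without KO P10 library 1 and 5 without control P6 library 2 or 3. For fatty acid oxidation the falls numbered 5 without KO P10 library 1 and 4 without control P6 library 1 or 3. Mitochondrial dynamics had 2 without KO P10 library 1 or control P6 library 3, 5 without KO P10 library 3 and 3 without control P6 library 2. With no marker gate fatty acid oxidation gave 4 falls and 3 rises, and mitochondrial dynamics 3 falls and 3 rises. The rises of mitochondrial dynamics, Fbxl4 alone in the full fit, numbered 4 without KO P10 library 1 or control P10 library 1. They numbered 0 without KO P10 library 2 or 3 or control P10 library 3 or control P6 library 1, 2 or 3. In the fit of Xist-rich libraries the median of the respiratory chain list was -1.20 and that of the tricarboxylic acid cycle -1.02. The median was -0.57 for fatty acid oxidation and -0.45 for mitochondrial dynamics, beside -0.013 over all genes of the main fit.

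Cox7a1 (chr7:30184144-30186078) is the heart and muscle isoform of a small subunit of cytochrome c oxidase. Its level was 226, 180.3 and 257 CPM in control P6, 157, 292 and 303 in control P10 and 41.1, 45.1 and 59.4 in KO P10. All KO P10 libraries were under all 6 control libraries, and the level was 4.55-fold lower than in control P6. Cox7a1 fell by 2.19 ± 0.28 on the log2 scale (adjusted p = 0.000199). Atp5l (chr9:44912557-44920742), subunit g of the ATP synthase, was at 88.3, 113 and 149 CPM in control P6, 64.9, 59.6 and 56.7 in control P10 and 30.04, 35.4 and 27.9 in KO P10. The 3 groups did not overlap, with control P6 highest and KO P10 lowest (log2 -1.90 ± 0.24, adjusted p = 0.000183 for KO P10 against control P6 and log2 -0.96 ± 0.22, adjusted p = 0.00896 for control P10). Ndufa1, an accessory subunit of complex I, was at 255, 208 and 251 CPM in control P6, 129, 253 and 271 in control P10 and 79.7, 70.1 and 85.9 in KO P10. Again the KO P10 libraries lay under all control libraries. Ndufa1 fell by 1.60 ± 0.27 on the log2 scale (adjusted p = 0.000912). Ndufa5 of complex I (log2 -1.49 ± 0.26, adjusted p = 0.00117) fell likewise. Uqcrc1, a core subunit of complex III, was at 92.8, 106 and 126 CPM in control P6, 16.2, 41.7 and 40.8 in control P10 and 19.6, 31.1 and 40.8 in KO P10. The 2 P10 groups overlapped and both lay under control P6. Uqcrc1 fell by 1.83 ± 0.32 on the log2 scale (adjusted p = 0.00127), beside log2 -1.66 ± 0.31, adjusted p = 0.00241 in control P10. Cox7c of cytochrome c oxidase was also under control P6 in both P10 groups. Cox7c fell by 1.70 ± 0.25 on the log2 scale (adjusted p = 0.000458), and -1.44 in control P10.

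In the tricarboxylic acid cycle, Dlst, a subunit of the 2-oxoglutarate dehydrogenase complex, was at 197, 234 and 243 CPM in control P6, 176, 271 and 235 in control P10 and 95.4, 119 and 112 in KO P10. The KO P10 libraries lay apart under both control groups, which overlapped (log2 -1.04 ± 0.22, adjusted p = 0.00429 against control P6). Idh3b, a subunit of the NAD-dependent isocitrate dehydrogenase, was at 170.5, 256 and 316 CPM in control P6 and 49.6, 66.5 and 109 in KO P10 (log2 -1.72 ± 0.32, adjusted p = 0.00172). The NADP-dependent Idh2 was at 377, 365 and 392 CPM in control P6 and 174, 183 and 199 in KO P10. Idh2 fell by 1.03 ± 0.21 on the log2 scale (adjusted p = 0.00339). Neither pair of groups overlapped. Pdhb, the E1 beta subunit of pyruvate dehydrogenase, fell by 1.45 on the log2 scale in KO P10 and by the same amount in control P10, with 170.5, 193 and 265 CPM in control P6, 67.6, 81.9 and 78.7 in control P10 and 48.98, 82.3 and 98.7 in KO P10. Dlat, the E2 subunit, fell (log2 -0.86 ± 0.21, adjusted p = 0.0101), a call that was lost without control P6 library 2. Idh3g, of the NAD-dependent isocitrate dehydrogenase, fell (log2 -1.21 ± 0.32, adjusted p = 0.0137), a call lost without control P6 library 3.

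Fatty acid uptake was represented by Slc27a1, a fatty acid transport protein at the cell surface, with 146, 124 and 147 CPM in control P6, 91.9, 96.03 and 81.6 in control P10 and 20.9, 41.5 and 35.8 in KO P10. The 3 groups formed steps that did not overlap, control P6 highest and KO P10 lowest. Slc27a1 fell by 2.08 ± 0.25 on the log2 scale (adjusted p = 0.000154). Cpt1b (chr15:89416405-89425863), the muscle carnitine palmitoyltransferase that gates entry of long-chain fatty acids into mitochondria, was at 234, 265 and 318 CPM in control P6, 157, 197 and 149.6 in control P10 and 75.8, 104 and 85.1 in KO P10. It too descended in steps without overlap (log2 -1.62 ± 0.22, adjusted p = 0.000293 in KO P10, log2 -0.70 ± 0.22, adjusted p = 0.0348 in control P10). Plin5, a lipid droplet protein of oxidative tissue, fell (log2 -1.80 ± 0.33, adjusted p = 0.00172). Acads, the short-chain acyl-CoA dehydrogenase, fell (log2 -1.15 ± 0.24, adjusted p = 0.00391) but lost its call in the fit of Xist-rich libraries (-0.83). Pdk4, a kinase that shuts off pyruvate dehydrogenase and so spares glucose, was the 1 rise of the list, at 42.2, 74.8 and 77.5 CPM in control P6 and 170.5, 111 and 129 in KO P10, with no overlap. Pdk4 rose by 1.07 ± 0.26 on the log2 scale (adjusted p = 0.00828). Its call was lost when nuclei with UMIs of other lineages were left out (0.65), and the list then had 0 rises.

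Mfn1 (chr3:32529465-32579239), a mitofusin that joins the outer membranes of mitochondria, was at 139.6, 141 and 148 CPM in control P6, 177, 135 and 141 in control P10 and 52.3, 59.7 and 45.8 in KO P10. The control libraries of both ages shared 1 range and the KO P10 libraries lay under it. Mfn1 was 2.71-fold lower (log2 -1.44 ± 0.21, adjusted p = 0.000462). Ckmt2, the mitochondrial creatine kinase of striated muscle, was at 473, 659.9 and 705 CPM in control P6, 434, 1006 and 884 in control P10 and 140.4, 273 and 379 in KO P10. Ckmt2 fell by 1.21 ± 0.36 on the log2 scale (adjusted p = 0.0269). Its call was lost without KO P10 library 1, KO P10 library 2, control P6 library 2 or control P6 library 3. Coq8a (chr1:180165238-180199602), which is needed for coenzyme Q synthesis, was at 126, 127 and 141 CPM in control P6, 93.7, 127 and 145 in control P10 and 36.6, 29.3 and 35.1 in KO P10, the KO P10 libraries under all others. Coq8a was 3.90-fold lower (log2 -1.96 ± 0.23, adjusted p = 0.000131). It belongs to no list and was named as 1 of the 5 largest falls among genes at which the controls of both ages were within 0.5 log2.

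**Figure D3:**
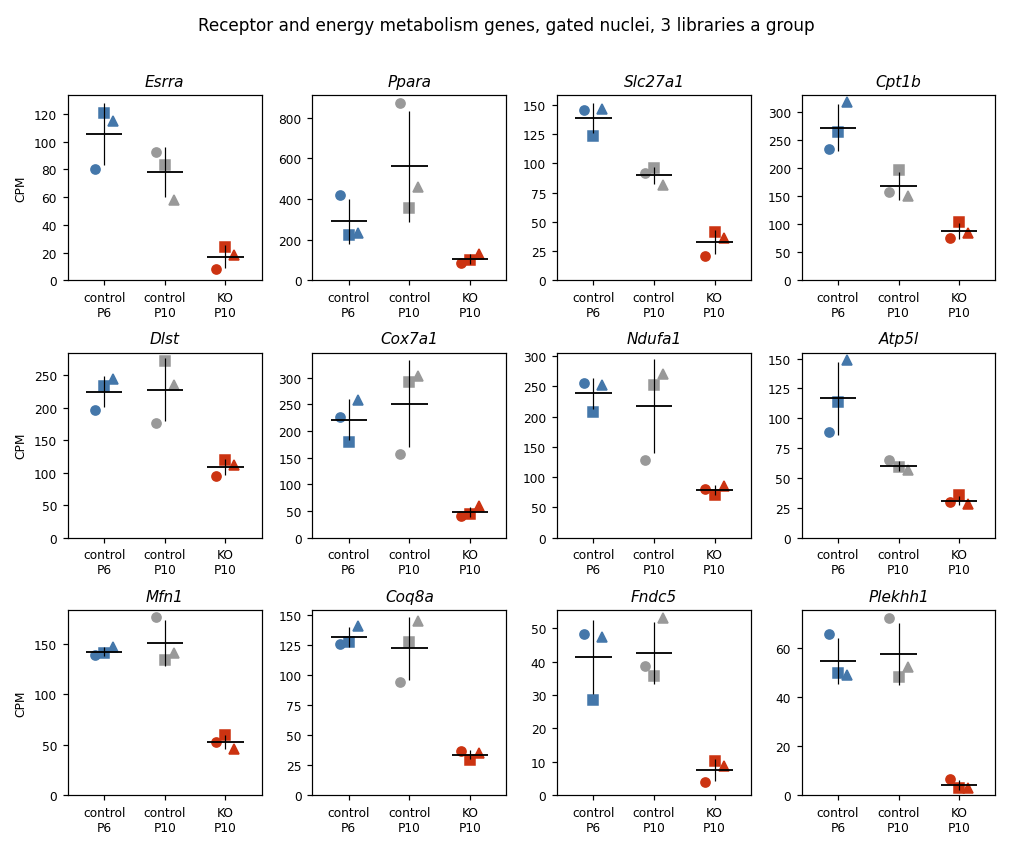
CPM in each library (points; circle, square and triangle are libraries 1, 2 and 3) with the group mean (horizontal line) and SD (vertical line, n = 3) for 12 genes of the receptors and of energy metabolism. In each panel the 3 KO P10 points lie under the 3 control P6 points, as for Esrra at 8.49 to 24.4 CPM against 80.0 to 121 CPM.

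Of 20 genes for estrogen-related receptors, coactivators, corepressors and related receptors, 3 fell (Esrra, Ppara and Thra) and 0 rose, with a median of 0.18. In the fit of Xist-rich libraries 0 of 20 rose and 2 fell (median 0.24). Ppara (chr15:85734983-85802819), the fatty acid sensing nuclear receptor, was at 419, 222 and 231 CPM in control P6, 871, 354 and 458 in control P10 and 82.9, 102 and 129.5 in KO P10. The 3 KO P10 libraries were lowest, under control P6 (2.77-fold lower, log2 -1.47 ± 0.35, adjusted p = 0.00766) and under control P10 (log2 -2.42 ± 0.35, adjusted p = 0.00119). Control P10 against control P6 just missed the threshold (log2 0.94 ± 0.34, adjusted p = 0.0595). Ppargc1a, the gene of PGC-1α, was at 1251, 436 and 459.9 CPM in control P6, 2851, 584 and 547 in control P10 and 1616, 1217 and 1812 in KO P10. The groups overlapped throughout (log2 1.11 ± 0.56, adjusted p = 0.169, 95% interval -0.07 to 2.30). Without control P6 library 1 the difference of Ppargc1a was 1.81, adjusted p = 0.0465. Thra, a thyroid hormone receptor, fell (log2 -0.65 ± 0.21, adjusted p = 0.038), a call that was lost in 10 of 23 settings, among them the Xist-rich libraries alone (-0.46), leaving out nuclei of other lineages, and leaving out KO P10 library 2 or 3, control P10 library 3, or control P6 library 2 or 3. Nr0b2 (small heterodimer partner), a receptor without a DNA-binding domain that represses others, was at 39.2, 43.6 and 45.9 CPM in control P6, 5.41, 26.7 and 16.5 in control P10 and 2.61, 5.49 and 4.29 in KO P10. It was among the 12 largest falls. Nr0b2 fell by 3.35 ± 0.46 on the log2 scale (adjusted p = 0.000259).

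Of 26 genes of glycolysis, glucose uptake and lactate transport, 5 rose and 3 fell (median 0.23). The balance turned in the fit of Xist-rich libraries, where 1 of 28 rose and 5 fell (median -0.13), and without nuclei of other lineages 1 of 23 rose and 2 fell (median -0.02). Slc16a3, a monocarboxylate transporter known for exporting lactate, was at 4.53, 9.35 and 4.52 CPM in control P6, 1.80, 4.71 and 2.27 in control P10 and 30.04, 55.5 and 35.1 in KO P10. KO P10 stood above both control groups. Slc16a3 was 6.25-fold higher (log2 2.64 ± 0.39, adjusted p = 0.000462). Pgam2, the muscle phosphoglycerate mutase, was at 176, 164 and 184 CPM in control P6 and 257, 388 and 559 in KO P10, with no overlap (log2 1.20 ± 0.28, adjusted p = 0.00692). Pgam2 lost its call in the fit of Xist-rich libraries (0.58) and without nuclei of other lineages (0.82). Slc2a4, the insulin-regulated glucose transporter GLUT4, went the other way, with 47.5, 60.3 and 83.6 CPM in control P6 and 31.4, 26.8 and 36.5 in KO P10. Slc2a4 fell by 1.02 ± 0.27 on the log2 scale (adjusted p = 0.0145). That call was lost without control P6 library 3, in the Xist-rich libraries (-0.998) and without nuclei of other lineages (-1.001). Rises of this list numbered 8 without KO P10 library 1, 2 without KO P10 library 2 or control P6 library 1 or 2, 9 without control P10 library 1 and 3 without control P10 library 3 or control P6 library 3. Its falls numbered 6 without KO P10 library 2 or control P10 library 1, 5 without control P10 library 2 and 1 without control P6 library 3.

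Promoter sequence was looked at because ERRs bind a short element, here TNAAGGTCA on either strand, around a core, AAGGTCA. Read from the other strand, the core has the letters TGACCTT. The core was searched on its own after values had been seen. RefSeq windows from 250 bases before to 50 bases after a gene's start (GRCm38.p6) were found for 122 of the 158 named genes. Some genes have more than 1 window, and a gene was counted once if any of its windows matched. The full element was found for 1.43% of 27025 genes with a window and for 0.893% of 8849 such genes tested. Among genes lower in KO P10 than in control P6 it was found for 13 of 946 genes (1.37%), and among higher genes for 10 of 788 (1.27%). The core was found for 3.76% of tested genes, for 6.24% of lower and 3.17% of higher genes, and for 6.11% of those lower in control P10 than in control P6. Of the named genes, Grin2c, Atp5l, Ak1, Myh7b, Celf2, Igf1r and Mylk4 had the core. Windows are shown for 4 genes. Myh7b, a slow-type myosin heavy chain gene that fell, has the full element 46 bases before the start. Igf1r, which rose, is the other named gene with the full element, 86 bases before its start, and its window is not shown. Atp5l, which fell, has the core 13 bases before it. Mylk4, a myosin light chain kinase gene that rose in both P10 groups, has the core 145 bases before it, and Cox7a1, a respiratory chain gene that fell, has neither. Capitals mark the core, and each sequence is written 5′ to 3′ on the gene's strand, from chr2:155610993-155611292 (plus strand), chr9:44920693-44920992 (minus), chr13:32783915-32784214 (minus) and chr7:30183921-30184220 (plus).
Myh7b: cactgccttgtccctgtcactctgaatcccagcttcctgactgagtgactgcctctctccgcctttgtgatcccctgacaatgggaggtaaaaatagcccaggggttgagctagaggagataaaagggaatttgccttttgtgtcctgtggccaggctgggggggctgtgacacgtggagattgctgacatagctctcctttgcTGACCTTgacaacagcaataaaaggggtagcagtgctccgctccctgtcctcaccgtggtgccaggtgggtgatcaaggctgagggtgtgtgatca
Atp5l: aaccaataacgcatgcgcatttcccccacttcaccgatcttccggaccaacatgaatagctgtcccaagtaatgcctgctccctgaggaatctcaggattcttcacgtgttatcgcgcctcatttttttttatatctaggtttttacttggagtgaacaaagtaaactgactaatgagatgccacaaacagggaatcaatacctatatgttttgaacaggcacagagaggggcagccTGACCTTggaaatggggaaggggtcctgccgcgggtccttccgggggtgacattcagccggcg
Mylk4: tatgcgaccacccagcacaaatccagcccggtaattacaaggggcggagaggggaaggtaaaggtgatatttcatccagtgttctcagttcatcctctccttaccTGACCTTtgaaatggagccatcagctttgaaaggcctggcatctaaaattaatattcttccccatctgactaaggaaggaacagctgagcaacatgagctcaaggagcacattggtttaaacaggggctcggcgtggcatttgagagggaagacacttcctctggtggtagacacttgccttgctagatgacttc
Cox7a1: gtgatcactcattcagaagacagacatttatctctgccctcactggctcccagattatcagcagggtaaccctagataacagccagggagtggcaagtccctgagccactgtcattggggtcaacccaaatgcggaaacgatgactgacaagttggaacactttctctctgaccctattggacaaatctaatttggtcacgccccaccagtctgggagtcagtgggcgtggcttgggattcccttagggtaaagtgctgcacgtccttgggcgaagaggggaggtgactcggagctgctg
A match is a description of the letters in these windows, and the absence of one in Cox7a1 says only that the letters are not in this window.

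Some genes stood at the day 6 level in the knockouts while the controls had moved on. They were chosen by these values and are described without a test: control P10 differed from control P6 and KO P10 from control P10, in opposite directions, and KO P10 was within 0.5 log2 of control P6. Calls of KO P10 against control P10 numbered 1046 in the full fit and 195 without control P10 library 3. Whether the genes described keep that call is not given. Sema3c, a secreted semaphorin that guides growing axons and vessels, was at 27.9, 27.02 and 27.1 CPM in control P6, 131, 115 and 136 in control P10 and 50.3, 20.7 and 25.04 in KO P10. The control P10 libraries were highest, and the KO P10 libraries lay on both sides of control P6. Slc13a3, a sodium-coupled dicarboxylate carrier, was at 8.30, 11.95 and 19.6 CPM in control P6, 77.5, 80.3 and 85.2 in control P10 and 7.18, 19.5 and 11.4 in KO P10. Its KO P10 and control P6 libraries were interleaved. Rgs7, a regulator of G protein signalling, was at 14.3, 31.7 and 20.3 CPM in control P6, 211, 89.8 and 156 in control P10 and 40.5, 7.32 and 32.2 in KO P10. Shank3, a scaffold protein known from synapses, was at 22.6, 20.3 and 12.04 CPM in control P6, 51.3, 63.1 and 85.8 in control P10 and 37.9, 20.1 and 20.03 in KO P10. In both the control P10 libraries were on top. Plxdc2, a membrane protein, had the same order, at 69.4, 31.7 and 22.6 CPM in control P6, 179, 91.95 and 154 in control P10 and 72.5, 43.3 and 40.1 in KO P10.

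By the same rule other genes were at the day 6 level in KO P10 and had gone down in control P10. Tpm2, the beta-tropomyosin of fetal heart and slow muscle, was at 68.6, 196 and 185 CPM in control P6, 21.6, 37.97 and 24.9 in control P10 and 84.3, 254 and 176 in KO P10. Control P10 lay apart under the others, and the KO P10 and control P6 libraries overlapped. Nmrk2, a nicotinamide riboside kinase of striated muscle, was at 21.1, 276 and 248 CPM in control P6, 14.4, 32.01 and 21.05 in control P10 and 152, 171 and 303 in KO P10. Control P6 library 1 lay among the control P10 libraries, and the other libraries of control P6 and KO P10 were high. Hspb1, a small heat shock protein, was at 28.7, 69.6 and 55.7 CPM in control P6, 8.11, 16.01 and 13.6 in control P10 and 41.1, 89.01 and 62.96 in KO P10. Gadd45g, a stress-response gene, was at 29.4, 96.1 and 108 CPM in control P6, 21.6, 25.4 and 16.5 in control P10 and 108, 92.7 and 73.7 in KO P10. Both had the control P10 libraries lowest, control P10 library 2 of Gadd45g coming close to control P6 library 1. Bex1, a small brain-expressed protein also seen in stressed heart muscle, was at 18.9, 48.3 and 63.98 CPM in control P6, 5.41, 12.2 and 9.72 in control P10 and 66.6, 18.3 and 57.2 in KO P10. KO P10 library 2 was level with control P6 library 1.

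Other genes left the day 6 level in the knockouts as they did in controls. These were chosen by calls in the same direction in both P10 groups, with the 2 groups within 0.5 log2, and are likewise described without a test of that pattern. Kcnd2 (chr6:21215503-21729805), the Kv4.2 channel of the transient outward current that shortens the action potential in adult mouse ventricle, was at 462, 316 and 226 CPM in control P6, 3058, 1296 and 1975 in control P10 and 1969, 823 and 2743 in KO P10. All libraries of both P10 groups lay above all control P6 libraries. Klf9, a transcription factor known to respond to thyroid hormone and glucocorticoids, was at 32.4, 23.4 and 30.1 CPM in control P6, 133, 79.7 and 106 in control P10 and 129.97, 122 and 93.01 in KO P10. Kcnt2, a sodium-activated potassium channel, had a log2 difference of 2.17 in KO P10 and 2.39 in control P10, and Mylk4 2.27 and 2.36. Corin, the protease that activates atrial natriuretic peptide, rose by 1.92 and 1.42 on the log2 scale.

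On the falling side, Tnni1 (chr1:135779434-135810989), the slow skeletal troponin I that the fetal heart uses, was at 488, 515 and 695 CPM in control P6, 97.3, 124 and 60.6 in control P10 and 99.3, 89.01 and 74.4 in KO P10. The P10 groups overlapped fully and both lay far under control P6 (-2.69 in KO P10 and -2.59 in control P10). Vwa1, an extracellular matrix protein, was at 347, 228 and 232 CPM in control P6, 32.4, 46.1 and 33.03 in control P10 and 32.7, 43.3 and 40.8 in KO P10, again with both P10 groups low. Tmigd1, a cell adhesion protein, had a log2 difference of -2.75 in KO P10 and -3.08 in control P10. Fabp3-ps1 is a pseudogene copy of Fabp3, so that its reads cannot be assigned with certainty, with -2.31 and -2.18.

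**Figure D4:**
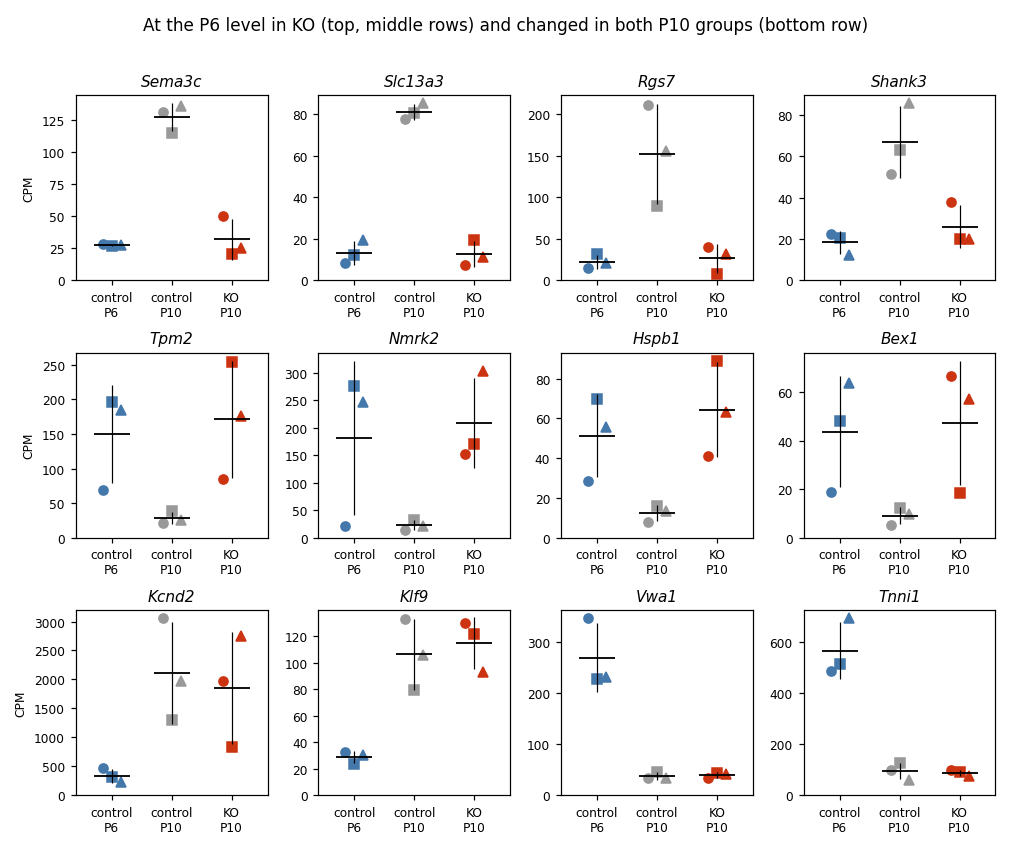
CPM in each library (points; circle, square and triangle are libraries 1, 2 and 3) with the group mean (horizontal line) and SD (vertical line, n = 3). In the top row the control P10 libraries are highest and in the middle row lowest, except that control P6 library 1 of Nmrk2 lies among them. In both rows the KO P10 points overlap those of control P6. In the bottom row both P10 groups lie on 1 side of control P6, as for Tnni1 at 60.6 to 124 CPM against 488 to 695 CPM.

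A further set moved away from controls of both ages, which were within 0.5 log2 of each other. Acta1 (chr8:123891769-123894751), the skeletal alpha-actin that the heart uses before birth and under load, was at 30.2, 77.4 and 58.7 CPM in control P6, 12.6, 99.2 and 60.2 in control P10 and 211, 1345 and 1055 in KO P10. Every KO P10 library exceeded every control library, with library 1 the lowest of the 3. Acta1 was 15.6-fold higher (log2 3.96 ± 0.66, adjusted p = 0.000928), and the log2 difference was 1.93 in the fit of Xist-rich libraries. Efhd2, a calcium-binding actin regulator, was at 12.1, 22.3 and 18.1 CPM in control P6, 16.2, 22.6 and 24.6 in control P10 and 112, 304 and 154 in KO P10. Efhd2 rose by 3.42 ± 0.37 on the log2 scale (adjusted p = 5.9e-05). P3h2, a collagen prolyl hydroxylase, was at 15.8, 30.1 and 13.5 CPM in control P6, 25.2, 26.99 and 32.1 in control P10 and 86.9, 179 and 98.7 in KO P10. P3h2 rose by 2.58 ± 0.33 on the log2 scale (adjusted p = 0.000205). Fhl1, a LIM-domain protein of the sarcomere linked to stretch sensing, was at 63.4, 108 and 75.3 CPM in control P6, 132, 82.9 and 63.1 in control P10 and 212, 789 and 285 in KO P10. KO P10 library 2 was highest and the difference of 2.38 became 1.60 without it. Nespas, an antisense transcript of the imprinted Gnas region (chr2:174281237-174295436, minus strand), was at 18.1, 35.3 and 17.3 CPM in control P6 and 90.1, 209 and 149.5 in KO P10. The use of strand in counting is not given in the sources used here, so its reads and those of the genes it overlaps cannot be told apart. Plekhh1, a gene of little known function, was at 65.6, 49.9 and 48.9 CPM in control P6, 72.1, 48.02 and 52.5 in control P10 and 6.53, 3.05 and 2.86 in KO P10, 12.96-fold lower in KO P10. Plekhh1 fell by 3.70 ± 0.34 on the log2 scale (adjusted p = 2.68e-05). Fndc5, the precursor of irisin and a known target of PGC-1α, was at 48.3, 28.6 and 47.4 CPM in control P6, 38.7, 35.8 and 53.1 in control P10 and 3.92, 10.4 and 8.59 in KO P10. Fndc5 fell by 2.41 ± 0.36 on the log2 scale (adjusted p = 0.000453).

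Of 30 fetal and stress-induced genes of the heart, 9 rose and 4 fell (median 0.26), beside 1 and 7 in control P10. With the Xist-rich libraries alone 5 of 31 rose and 4 fell (median 0.09), and without nuclei of other lineages 10 of 27 rose and 2 fell (median 0.25). Besides Acta1 and Fhl1 the rises were Nppa, Nppb, Acta2, Myl7, Xirp2, Ctgf and Ryr3. Nppa (chr4:148000722-148002079), atrial natriuretic peptide, was at 162, 839 and 492 CPM in control P6, 66.7, 562 and 85.8 in control P10 and 2328, 17457 and 10459 in KO P10. All KO P10 libraries were above all control libraries, with library 1 the lowest and library 2 the highest of the 3. Nppa was 20.2-fold higher (log2 4.34 ± 0.89, adjusted p = 0.00326). The log2 difference of Nppa was 3.69 without KO P10 library 2, 4.95 without control P6 library 2 and 2.25 in the fit of Xist-rich libraries. Nppb, B-type natriuretic peptide, was at 115, 660.4 and 400.5 CPM in control P6 and 363, 2923 and 2095 in KO P10, with overlap between KO P10 library 1 and control P6. Nppb rose by 2.19 ± 0.72 on the log2 scale (adjusted p = 0.0403). The call for Nppb was lost without KO P10 library 2 or 3 and without control P6 library 1 or 3, the value was 2.80 without control P6 library 2, and the sign turned in the fit of Xist-rich libraries (-0.088).

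Myl7, the atrial regulatory light chain, was at 15.1, 14.5 and 77.5 CPM in control P6, 9.91, 14.4 and 11.01 in control P10 and 90.1, 262 and 165 in KO P10, with control P6 library 3 near KO P10 library 1. Myl7 rose by 2.30 ± 0.51 on the log2 scale (adjusted p = 0.00579), and 3.55 without control P6 library 3. Myl7 lost its call in the Xist-rich libraries (1.39). Ryr3, a ryanodine receptor that is scarce in adult heart, was at 19.6, 42.1 and 30.1 CPM in control P6, 14.4, 21.03 and 15.2 in control P10 and 68.6, 457 and 220.4 in KO P10. Ryr3 rose by 3.002 ± 0.50 on the log2 scale (adjusted p = 0.000928), and by 2.22 without KO P10 library 2. Acta2, the smooth muscle actin of the embryonic heart tube, rose in both P10 groups. Acta2 rose by 2.27 ± 0.42 on the log2 scale (adjusted p = 0.00168), and log2 1.51 ± 0.41, adjusted p = 0.0184 in control P10. The 4 falls were Tnni1, Tnnt1, Myh3 and Meg3. Tnnt1, the slow skeletal troponin T, was at 51.3, 55.1 and 76.8 CPM in control P6, 31.5, 40.8 and 39.8 in control P10 and 23.5, 18.3 and 10.7 in KO P10. Tnnt1 fell by 1.79 ± 0.29 on the log2 scale (adjusted p = 0.000727). The main myosins did not pass: Myh6 was at 11621, 13642 and 15996 CPM in control P6 and 10775, 16596 and 13304 in KO P10 (log2 -0.02 ± 0.38, adjusted p = 0.975, 95% interval -0.82 to 0.78). Myh7 was at 385, 601 and 483 CPM in control P6 and 155, 691 and 539 in KO P10. Myh7 differed by -0.09 ± 0.40 on the log2 scale (adjusted p = 0.897), 95% interval -0.93 to 0.76. Both pairs of groups overlapped. In the fit of Xist-rich libraries the difference of Myh7 was -1.64.

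In the marker-negative nuclei of the same libraries Nppa was at 268, 461 and 375 CPM in control P6 and 2347, 19404 and 11294 in KO P10. Acta1 was at 23.7, 42.2 and 40.4 CPM in control P6 and 243, 1724 and 1146 in KO P10 in these nuclei. Myl7 was at 11.8, 12.1 and 24.2 CPM in control P6 and 84.6, 278 and 217 in KO P10 in them. The difference between KO P10 and control P6 did not differ between the 2 kinds of nuclei beyond the test's threshold for Nppa (log2 -0.47 ± 0.27, adjusted p = 0.48), Acta1 (log2 -1.02 ± 0.34, adjusted p = 0.089) or Myl7 (log2 -1.39 ± 0.47, adjusted p = 0.095). Markers of cardiomyocytes outside the gate made up 0.590% to 0.701% of the UMIs of marker-negative nuclei in control P6 and 1.53% to 2.66% in KO P10, and 7 of the 8 rose there, where 5.23% of 5215 genes tested rose and 5.33% fell. The part of RNA from outside the nucleus in the levels of the gated nuclei was not tested. Over all genes the difference between kinds of nuclei passed for 279 of 12256 genes (2.28%), and with 1 library left out for 125 (without control P6 library 3), 162 (without control P6 library 2), 172 (without KO P10 library 2) and 174 (without KO P10 library 3).

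**Figure D5:**
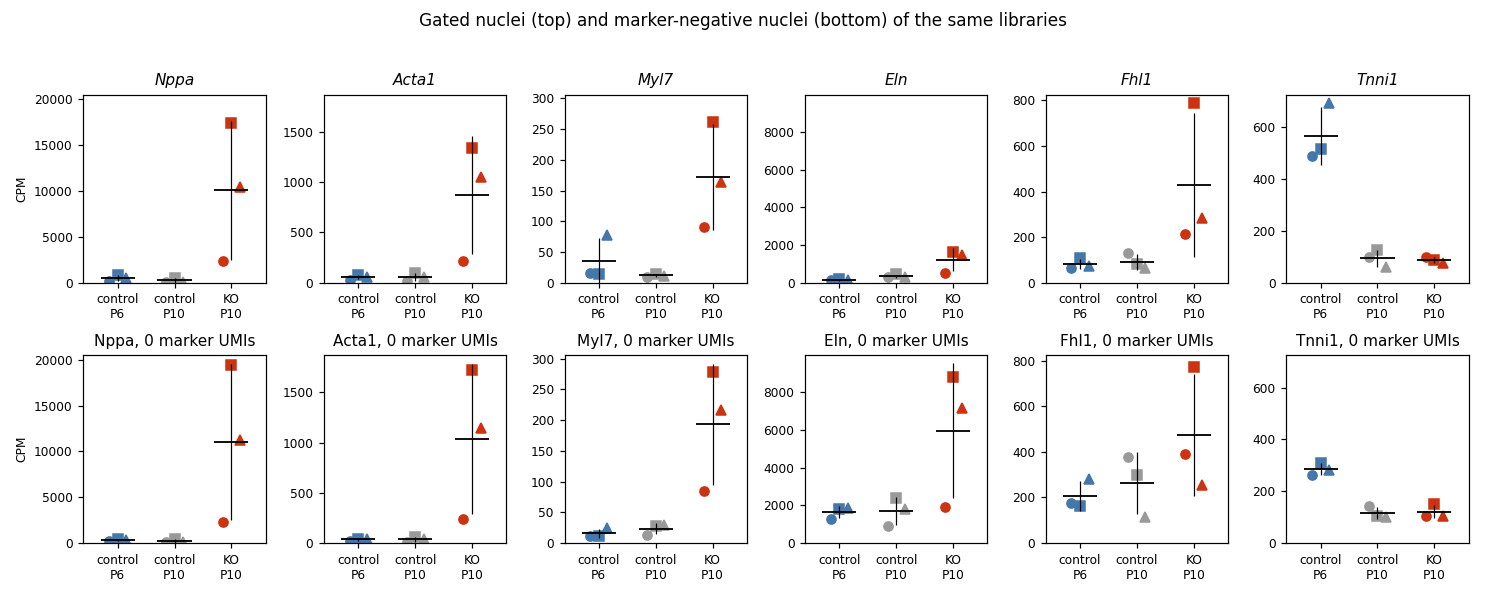
CPM in gated nuclei (top) and marker-negative nuclei (bottom) of each library (points; circle, square and triangle are libraries 1, 2 and 3) with mean and SD (n = 3), both panels of a gene on 1 scale. Nppa, Acta1 and Myl7 reached like levels in both kinds of nuclei of the knockouts, Eln was higher in marker-negative nuclei, and Tnni1 in control P6 was higher in gated nuclei (488 to 695 CPM).

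Contractile genes of the maturing heart moved both ways, with 5 of 26 higher and 4 lower (median 0.05). Myh7b was at 694, 608 and 684 CPM in control P6, 356, 404 and 365 in control P10 and 263, 127 and 257 in KO P10. The groups formed 3 separate steps from control P6 down to KO P10. Myh7b fell by 1.62 ± 0.27 on the log2 scale (adjusted p = 0.000956). Tnnc1, the cardiac troponin C, was at 2883, 4281 and 4724 CPM in control P6, 611, 1172 and 956 in control P10 and 806, 1925 and 1739 in KO P10, with both P10 groups under control P6. Tnnc1 fell by 1.41 ± 0.37 on the log2 scale (adjusted p = 0.0145), a call lost without control P6 library 2 or 3. Lmod2, a leiomodin that lengthens thin filaments, was at 156, 198 and 137 CPM in control P6 and 511, 408 and 331 in KO P10. Lmod2 rose by 1.34 ± 0.25 on the log2 scale (adjusted p = 0.00201). Pdlim5, a Z-disc protein, was at 889, 735 and 686 CPM in control P6, 3857, 1005 and 1188 in control P10 and 2529, 3771 and 2126 in KO P10. Pdlim5 rose by 1.87 ± 0.45 on the log2 scale (adjusted p = 0.00851). Tcap, the titin cap, fell (log2 -0.998 ± 0.22, adjusted p = 0.00522), a call lost in the Xist-rich libraries (-0.93). The mature troponin I gene Tnni3 was at 1356, 1585 and 1919 CPM in control P6 and 743, 1105 and 1419 in KO P10. Tnni3 differed by -0.57 ± 0.29 on the log2 scale (adjusted p = 0.179) and by -1.10 in the Xist-rich libraries. It passed as lower without nuclei of other lineages (-0.88, adjusted p = 0.0363). The rises of the list numbered 8 without KO P10 library 1 or control P10 library 1, 2 without KO P10 library 2 or control P6 library 3 and 3 without KO P10 library 3 or control P6 library 1 or 2. Its falls numbered 2 without control P6 library 2 or 3. Of this list 3 of 26 rose and 4 fell (median -0.21) in the Xist-rich libraries.

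Genes of calcium handling gave 3 rises and 1 fall among 21 genes (median 0.25). Jph1, a junctophilin that holds the cell membrane to the sarcoplasmic reticulum, was at 32.4, 50.4 and 36.1 CPM in control P6, 78.4, 53.4 and 59.3 in control P10 and 86.2, 104 and 112 in KO P10, with KO P10 on top and clear of control P6. Jph1 rose by 1.33 ± 0.24 on the log2 scale (adjusted p = 0.00154). Slc8a1, the sodium-calcium exchanger, was at 3459, 6483 and 4389.9 CPM in control P6 and 7250.4, 17023 and 9861 in KO P10, clear of overlap (log2 1.25 ± 0.41, adjusted p = 0.0392). The call was lost in 9 of 23 settings, among them the Xist-rich libraries (0.63) and without KO P10 library 2 or 3, control P10 library 3, or control P6 library 1, 2 or 3. Atp2a2, the calcium pump SERCA2 of the sarcoplasmic reticulum, was at 1799, 1050.1 and 1485 CPM in control P6, 2867, 1959.6 and 2463 in control P10 and 1736, 1693 and 1964 in KO P10 and did not pass. Atp2a2 differed by 0.32 ± 0.29 on the log2 scale (adjusted p = 0.473), 95% interval -0.30 to 0.94. Rises of the list numbered 5 without control P10 library 1. The 1 fall, Camk2a (log2 -0.78 ± 0.26, adjusted p = 0.046), lost its call in 15 of 23 settings. In the Xist-rich libraries 2 of 23 rose and 0 fell (median 0.22) in the list, and without nuclei of other lineages 3 of 20 rose and 2 fell (median 0.12). Falls of the list numbered 2 without KO P10 library 1 or control P10 library 1 and 0 without KO P10 library 2 or 3 or control P10 library 2 or 3 or control P6 library 1 or 2.

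Of 34 ion channel genes, 5 rose and 3 fell in KO P10 (median 0.04), beside 10 rises and 2 falls in control P10, and KO P10 against control P10 gave 3 rises and 8 falls. Whether these counts differ was not tested. Of the channels 4 of 35 rose and 2 fell (median 0.01) in the Xist-rich libraries. Cacna1h, a T-type calcium channel of the fetal heart, was at 13.6, 14.03 and 25.6 CPM in control P6, 1.80, 5.65 and 7.77 in control P10 and 1.31, 1.83 and 0.715 in KO P10. Cacna1h fell by 3.68 ± 0.58 on the log2 scale (adjusted p = 0.000597). These values rest on 18, 27 and 34 UMIs in control P6 and 2, 3 and 1 in KO P10. Kcnd3, Kv4.3, was at 10.6, 7.27 and 9.79 CPM in control P6, 36.03, 30.1 and 50.2 in control P10 and 14.4, 21.9 and 24.3 in KO P10, where KO P10 stood between the control ages. Kcnd3 rose by 1.15 ± 0.34 on the log2 scale (adjusted p = 0.0242), a call lost without KO P10 library 2 or 3 and without control P6 library 2 or 3, and in the Xist-rich libraries (0.68). Cacna1c, the L-type calcium channel, was at 2857, 2002 and 1563 CPM in control P6, 10123, 4414 and 5969 in control P10 and 3739, 5826 and 4326 in KO P10. Both P10 groups lay above control P6. KO P10 just missed the threshold (log2 1.11 ± 0.39, adjusted p = 0.0518) and passed it without nuclei of other lineages (1.13, adjusted p = 0.0335), and control P10 passed it (log2 1.67 ± 0.39, adjusted p = 0.00878). Kcnh2 is the channel of the rapid delayed rectifier current. Kcnh2 fell by 1.12 ± 0.25 on the log2 scale (adjusted p = 0.00594), a call lost in the Xist-rich libraries (-0.76). Rises of the list numbered 2 without KO P10 library 2 or control P6 library 3, 3 without KO P10 library 3 or control P10 library 3, 8 without control P10 library 1 and 1 without control P6 library 2, and falls 8 without KO P10 library 1.

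Of 44 cell cycle genes, 11 fell and 2 rose (median -0.86), beside 5 falls and 3 rises in control P10. Mcm5, a subunit of the replicative helicase, was at 7.54, 17.7 and 15.8 CPM in control P6, 3.60, 8.79 and 6.80 in control P10 and 1.96, 1.22 and 2.86 in KO P10. The KO P10 libraries were lowest, with 10, 34 and 21 UMIs in control P6 and 3, 2 and 4 in KO P10. Mcm5 fell by 2.77 ± 0.53 on the log2 scale (adjusted p = 0.00196). Tyms, thymidylate synthase, was at 42.2, 65.5 and 66.2 CPM in control P6 and 31.4, 13.4 and 23.6 in KO P10, without overlap (log2 -1.35 ± 0.31, adjusted p = 0.0067). Its call was lost in the Xist-rich libraries (-0.87), as were those of Mcm7 (-0.96), Brip1 (-0.85) and Cdkn1c (1.002). Mcm7, of the same helicase as Mcm5, had a difference of -1.80 (-2.47 without KO P10 library 1). The other falls were Ccna2, Ccne2, Cdk4, Rrm2, Hells, Kif15, Kif20b and Brip1. Ccnd2, cyclin D2, rose in both P10 groups (log2 1.29 ± 0.27, adjusted p = 0.00368, and 1.01 in control P10), as did Cdkn1c, an inhibitor of cyclin-dependent kinases. Cdkn1c rose by 0.95 ± 0.26 on the log2 scale (adjusted p = 0.018), lost in 10 of 23 settings, among them without KO P10 library 2 or control P6 library 2 or 3. The falls numbered 5 without KO P10 library 2, 7 without control P10 library 3 and 4 without control P6 library 2 or 3, and 19 with no filter on low counts. In the fit of Xist-rich libraries 1 of 44 rose and 2 fell (median -0.44), and without nuclei of other lineages 1 of 32 rose and 11 fell (median -1.32). The rises numbered 1 without KO P10 library 2 or control P6 library 2 or 3.

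Of 24 genes of the integrated stress response and of serine and one-carbon metabolism, 8 rose and 1 fell (median 0.82), beside 0 higher and 7 lower in control P10. Gdf15, a secreted factor of mitochondrial stress, was at 2.26, 8.83 and 4.52 CPM in control P6, 0.901, 0.628 and 0.648 in control P10 and 19.6, 21.9 and 27.9 in KO P10. Control P10 was lowest and KO P10 highest with no overlap between groups (log2 2.06 ± 0.40, adjusted p = 0.00243 against control P6, 2.75 without control P6 library 2). Atf5, a transcription factor of the mitochondrial stress response, was at 6.03, 8.83 and 14.3 CPM in control P6, 9.01, 14.1 and 10.04 in control P10 and 18.9, 31.7 and 38.6 in KO P10, KO P10 on top. Atf5 rose by 1.61 ± 0.37 on the log2 scale (adjusted p = 0.00616). Mthfd1l, the mitochondrial formate-producing enzyme, was at 10.6, 28.1 and 20.3 CPM in control P6 and 47.03, 62.2 and 35.1 in KO P10. Mthfd1l rose by 1.26 ± 0.32 on the log2 scale (adjusted p = 0.0105). Mt2, a metallothionein, was at 6.79, 17.1 and 14.3 CPM in control P6 and 18.3, 129.9 and 75.1 in KO P10. KO P10 library 1 came close to control P6. Mt2 rose by 2.51 ± 0.59 on the log2 scale (adjusted p = 0.00766), 1.84 without KO P10 library 2. The other rises were Mthfd2, Nupr1, Vldlr and Mt1. Slc7a11, the cystine-glutamate exchanger, fell, with 23.4, 21.8 and 21.8 CPM in control P6, 8.11, 10.04 and 9.72 in control P10 and 5.88, 3.66 and 4.29 in KO P10. Slc7a11 fell by 2.26 ± 0.33 on the log2 scale (adjusted p = 0.000458). With the Xist-rich libraries alone 4 of 23 rose and 1 fell (median 0.26), and without nuclei of other lineages 3 of 16 rose and 2 fell (median 0.17). Atf5 (0.99), Mt2 (0.51) and Vldlr (0.74) lost their calls in the Xist-rich libraries.

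Of 17 hypoxia genes, 5 rose and 1 fell (median 0.54). Hif1a (chr12:73901375-73947530), the oxygen-regulated transcription factor, was at 293, 211 and 199 CPM in control P6, 341, 295 and 289 in control P10 and 733, 786 and 722 in KO P10. Its KO P10 libraries lay within a narrow range above all 6 control libraries. Hif1a was 3.19-fold higher (log2 1.67 ± 0.23, adjusted p = 0.000293). Bnip3, a mitophagy receptor, was at 13.6, 16.6 and 18.1 CPM in control P6, 11.7, 20.7 and 14.9 in control P10 and 28.1, 85.3 and 50.1 in KO P10. Bnip3 rose by 1.76 ± 0.36 on the log2 scale (adjusted p = 0.00355), a call lost in the Xist-rich libraries (0.82). P4ha1, a collagen prolyl hydroxylase, was at 32.4, 44.7 and 33.1 CPM in control P6 and 79.03, 95.7 and 80.1 in KO P10. P4ha1 rose by 1.20 ± 0.22 on the log2 scale (adjusted p = 0.00149). Vegfa, the vascular growth factor, was the 1 fall, at 588, 691 and 786 CPM in control P6, 250.4, 475 and 347 in control P10 and 188, 379 and 341 in KO P10, low in both P10 groups. Vegfa fell by 1.18 ± 0.30 on the log2 scale (adjusted p = 0.0111), lost without control P6 library 3. Rises of the hypoxia list numbered 8 without KO P10 library 1, and falls 2 without KO P10 library 2 or control P6 library 1 and 0 without control P6 library 3. With the Xist-rich libraries alone 3 of 17 rose and 2 fell (median 0.08), and without nuclei of other lineages 4 of 13 rose and 2 fell (median 0.21). Egln1, a prolyl hydroxylase that marks HIF-1α for destruction, was at 55.8, 46.2 and 43.7 CPM in control P6, 75.7, 102 and 99.1 in control P10 and 94.1, 141 and 115 in KO P10, above control P6 in both P10 groups. Egln1 rose by 1.27 ± 0.23 on the log2 scale (adjusted p = 0.00155).

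Adrenergic, insulin and growth signalling held 13 rises and 1 fall among 29 genes (median 0.57), beside 12 and 0 in control P10. Igf1r, the IGF-1 receptor, was at 226, 317 and 222 CPM in control P6, 399.98, 352 and 287 in control P10 and 635, 942 and 598 in KO P10, with KO P10 above both control groups. Igf1r rose by 1.51 ± 0.26 on the log2 scale (adjusted p = 0.00117). Prkar1a, the regulatory subunit of protein kinase A, was at 245, 169 and 204 CPM in control P6, 209.9, 228 and 169 in control P10 and 521, 427 and 603 in KO P10, and there too only KO P10 was high. Prkar1a rose by 1.33 ± 0.24 on the log2 scale (adjusted p = 0.00136). Prkce, protein kinase C epsilon, and Bdnf, a neurotrophin, rose in both P10 groups. Prkce was at 152, 146 and 102 CPM in control P6, 536, 272 and 379.5 in control P10 and 389, 349 and 303 in KO P10. Prkce rose by 1.38 ± 0.27 on the log2 scale (adjusted p = 0.0024). Bdnf was at 12.8, 7.27 and 3.01 CPM in control P6, 25.2, 32.3 and 30.8 in control P10 and 29.4, 25.6 and 35.1 in KO P10. Bdnf rose by 1.96 ± 0.37 on the log2 scale (adjusted p = 0.0018), a call lost without nuclei of other lineages (1.003). Nrg1, a ligand of ERBB receptors that the endocardium supplies to muscle, was at 38.5, 82.1 and 39.1 CPM in control P6 and 133, 242 and 127 in KO P10. Nrg1 rose by 1.63 ± 0.33 on the log2 scale (adjusted p = 0.00324). In marker-negative nuclei Nrg1 was at 146, 555 and 327 CPM in control P6 and 793, 4128 and 1256 in KO P10. Its call in gated nuclei was lost when nuclei with UMIs of other lineages were left out (0.60). Adra1b, an alpha-1 adrenergic receptor, was the 1 fall, and the falls numbered 3 without KO P10 library 1. In the Xist-rich libraries 13 of 29 rose and 0 fell (median 0.83), and without nuclei of other lineages 11 of 27 rose and 2 fell (median 0.67).

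Of 19 TGF-beta ligands and matricellular genes, 12 rose and 0 fell (median 1.30), beside 5 higher and 1 lower in control P10. The ligand Tgfb2 was at 40.7, 64.9 and 39.1 CPM in control P6 and 95.4, 145 and 119 in KO P10. Tgfb2 rose by 1.30 ± 0.27 on the log2 scale (adjusted p = 0.00393). Tgfb3, another ligand, was at 5.28, 12.99 and 6.77 CPM in control P6 and 17.6, 56.7 and 46.5 in KO P10. Tgfb3 rose by 2.20 ± 0.44 on the log2 scale (adjusted p = 0.00258), and neither gene overlapped between the groups. In the Xist-rich libraries Tgfb3 lost its call (1.03), and 10 of 19 rose and 0 fell (median 1.07) in the list. Lox, which crosslinks collagen and elastin, was at 6.79, 14.5 and 11.3 CPM in control P6, 13.5, 28.2 and 11.3 in control P10 and 59.4, 115 and 63.7 in KO P10, KO P10 clear above the rest. Lox rose by 2.83 ± 0.40 on the log2 scale (adjusted p = 0.00031). Thbs4, a thrombospondin induced in loaded heart, was at 6.03, 12.99 and 7.53 CPM in control P6, 14.4, 15.7 and 7.45 in control P10 and 42.5, 38.4 and 50.1 in KO P10. Thbs4 rose by 2.24 ± 0.35 on the log2 scale (adjusted p = 0.000585). Timp3, an inhibitor of matrix proteases, was at 107, 114 and 97.1 CPM in control P6, 149, 177 and 175 in control P10 and 280.2, 263 and 215 in KO P10. Timp3 rose by 1.25 ± 0.21 on the log2 scale (adjusted p = 0.000837). Other rises included Thbs1, Postn, Ctgf, Cyr61, Fn1 and Timp1. Fibroblasts are a known source of many of these genes, and 4 of 8 fibroblast markers (Dcn, Col1a2, Pdgfra and Abca8a) and 5 of 6 macrophage markers rose in the gated nuclei, with 0 of the 8 fibroblast markers at 0 UMIs in any KO P10 library. With nuclei that held 2 or more UMIs of other lineages left out, 7 of 13 rose and 0 fell (median 1.35), and without control P6 library 2 likewise 7 rose. In the marker-negative nuclei, where 5.23% of genes tested rose, 3 of 15 did.

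Transcription factors of the heart gave 4 rises (Foxo1, Foxo3, Yap1 and Wwtr1) and 2 falls (Hopx and Hey2) among 28. Hopx, a homeodomain protein that limits muscle cell proliferation, was at 122, 85.2 and 116 CPM in control P6, 163, 92.3 and 139.9 in control P10 and 43.1, 34.7 and 34.3 in KO P10, with KO P10 under both control groups. Hopx fell by 1.52 ± 0.26 on the log2 scale (adjusted p = 0.00103). Hey2, a Notch target of ventricular muscle, was at 38.5, 36.9 and 42.9 CPM in control P6, 12.6, 13.5 and 10.7 in control P10 and 13.7, 17.7 and 7.15 in KO P10, low in both P10 groups. Hey2 fell by 1.59 ± 0.30 on the log2 scale (adjusted p = 0.00195), a call lost without nuclei of other lineages (-1.36). Foxo1 was at 24.1, 16.6 and 15.8 CPM in control P6, 55.9, 49.6 and 54.7 in control P10 and 66.6, 49.4 and 41.5 in KO P10, high in both P10 groups. Foxo1 rose by 1.48 ± 0.26 on the log2 scale (adjusted p = 0.00125). In the Xist-rich libraries 2 of 28 rose and 2 fell (median 0.43) in that list, Foxo3 (0.98) and Yap1 (0.63) losing their calls, and without nuclei of other lineages 5 of 24 rose and 1 fell (median 0.26). Of 14 splicing factors 4 rose and 3 fell. Celf2 rose (log2 1.30 ± 0.29, adjusted p = 0.00566) and Srsf2 fell (log2 -1.42 ± 0.25, adjusted p = 0.00122), beside 1.01 and -1.48 in control P10. Khdrbs3 was at 69.4, 50.4 and 58.7 CPM in control P6, 124, 65.3 and 78.05 in control P10 and 31.4, 34.1 and 30.8 in KO P10, lowest in KO P10. Khdrbs3 fell by 0.88 ± 0.26 on the log2 scale (adjusted p = 0.0268), lost without any 1 of the 3 KO P10 libraries, without control P6 library 1 or 3, in the Xist-rich libraries (-0.90) and without nuclei of other lineages (-0.75). The splicing rises numbered 1 without KO P10 library 2 or control P6 library 2 or 3. The splicing falls numbered 1 without KO P10 library 3 or control P6 library 3. Of the splicing factors 2 of 14 rose and 2 fell (median 0.27) in the Xist-rich libraries, and 2 of 12 rose and 2 fell (median 0.13) without nuclei of other lineages.

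At the intercalated disc and costamere, which couple muscle cells to each other and to the matrix, 6 of 26 genes rose and 1 fell (median 0.30). Itgb1, the integrin beta-1 chain, was at 239, 238 and 217 CPM in control P6, 348, 282 and 364 in control P10 and 524, 605 and 542 in KO P10, KO P10 clear above all controls. Itgb1 rose by 1.27 ± 0.21 on the log2 scale (adjusted p = 0.000994). Ctnnb1, beta-catenin, was at 112, 93.01 and 98.6 CPM in control P6, 81.98, 136 and 113 in control P10 and 203, 179.8 and 303 in KO P10. Ctnnb1 rose by 1.17 ± 0.25 on the log2 scale (adjusted p = 0.00432). Itga7, the integrin chain of muscle, was at 38.5, 31.2 and 32.4 CPM in control P6, 38.7, 62.5 and 58.9 in control P10 and 64.01, 89.01 and 77.99 in KO P10. Itga7 rose by 1.18 ± 0.24 on the log2 scale (adjusted p = 0.00322), a call lost in the Xist-rich libraries (0.94). The rises numbered 3 without KO P10 library 2 or control P6 library 2 or 3 and 10 without control P10 library 1. In the fit of Xist-rich libraries 2 of 26 rose and 1 fell (median 0.37). Dsg2, a desmosomal cadherin, was the 1 fall (log2 -0.75 ± 0.22, adjusted p = 0.0271), lost without KO P10 library 2 or 3 or control P6 library 1 or 3 and in the Xist-rich libraries (-0.49). The falls of that list numbered 2 without KO P10 library 1 and 0 without KO P10 library 2 or control P6 library 1 or 3. Of 19 clock genes, 2 rose. Per2, a repressor of the clock, was at 9.81, 14.03 and 13.5 CPM in control P6, 17.1, 13.5 and 12.3 in control P10 and 24.2, 43.9 and 25.04 in KO P10. Per2 rose by 1.31 ± 0.31 on the log2 scale (adjusted p = 0.00855), a call lost in the Xist-rich libraries (0.96) and without nuclei of other lineages (1.04). Rora, an orphan receptor that activates clock genes, rose (log2 1.22 ± 0.40, adjusted p = 0.0394) and lost its call without KO P10 library 1 or 3, control P6 library 2 or 3 or nuclei of other lineages (0.87). The clock count was 1 without KO P10 library 1 or 3 and without control P6 library 2 or 3. Of the clock genes 1 of 19 rose and 0 fell (median 0.33) in the Xist-rich libraries, and 0 of 17 rose and 1 fell (median 0.12) without nuclei of other lineages. Of 16 immediate early and heat shock genes, 1 rose (Hsph1, log2 1.55 ± 0.40, adjusted p = 0.0125), a count of 3 without KO P10 library 2, 2 without control P10 library 1, 7 with no filter on low counts and 0 without control P6 library 2. In that list 7 of 17 rose and 1 fell (median 0.86) in the Xist-rich libraries, and 0 of 9 rose and 0 fell (median 0.00) without nuclei of other lineages.

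Among the 12 largest rises and 12 largest falls with a mean of at least 30 CPM in the higher group and no overlap were several genes in no list. Grin2c, a glutamate receptor subunit known from brain, was at 2.26, 6.24 and 0.753 CPM in control P6, 5.41, 4.71 and 5.18 in control P10 and 23.5, 104 and 85.1 in KO P10. Grin2c rose by 4.35 ± 0.57 on the log2 scale (adjusted p = 0.000212), by 5.49 without control P6 library 2 and 2.78 in the fit of Xist-rich libraries. Gpm6a, a membrane glycoprotein of neurons and epicardium-derived cells, was at 5.28, 2.60 and 4.52 CPM in control P6, 16.2, 12.9 and 9.39 in control P10 and 42.5, 59.7 and 40.8 in KO P10. It went up in 3 steps from control P6 to KO P10. Gpm6a rose by 3.56 ± 0.36 on the log2 scale (adjusted p = 5.11e-05). Eln, elastin, was at 128, 189.7 and 123 CPM in control P6, 277, 444 and 306 in control P10 and 530.3, 1653 and 1495 in KO P10. Eln rose by 3.05 ± 0.39 on the log2 scale (adjusted p = 0.000197). Col8a1, a short-chain collagen, was at 8.30, 8.83 and 9.03 CPM in control P6 and 54.9, 149 and 58.7 in KO P10. Col8a1 rose by 3.32 ± 0.39 on the log2 scale (adjusted p = 0.000131). Col4a4 was at 9.81, 22.3 and 17.3 CPM in control P6 and 94.1, 266 and 112 in KO P10. Col4a4 rose by 3.22 ± 0.40 on the log2 scale (adjusted p = 0.000171). Eln was at 1258, 1799 and 1864 CPM in control P6 and 1924, 8813 and 7159 in KO P10 in marker-negative nuclei, above its gated level in every one of these libraries. Without KO P10 library 2, Col8a1 was at a difference of 2.70 and Col4a4 at 2.61. Further rises were Lama3 (log2 3.23) and Kctd16 (2.99).

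The deepest fall was that of Ybx2 (chr11:69935796-69941605), a Y-box RNA-binding protein known from germ cells. Its level was 49.03, 60.8 and 85.8 CPM in control P6, 9.01, 19.8 and 18.5 in control P10 and 1.31, 0.61 and 2.15 in KO P10. The 3 groups stood in separate ranges, with 65, 117 and 114 UMIs in control P6 and 2, 1 and 3 in KO P10. Ybx2 was 47.1-fold lower (log2 -5.56 ± 0.46, adjusted p = 1.12e-05). Rab39, a small GTPase of vesicle traffic, was at 192, 233 and 143 CPM in control P6, 3.60, 31.7 and 43.4 in control P10 and 7.18, 15.2 and 4.29 in KO P10, both P10 groups low and overlapping. Rab39 fell by 4.37 ± 0.55 on the log2 scale (adjusted p = 0.000183), -5.01 without KO P10 library 2. Myh8, the perinatal skeletal myosin, was at 33.9, 41.6 and 47.4 CPM in control P6, 4.50, 8.47 and 5.18 in control P10 and 0.653, 4.88 and 1.43 in KO P10. Myh8 fell by 4.06 ± 0.46 on the log2 scale (adjusted p = 9.39e-05), and its difference was -5.22 without KO P10 library 2. Tspear was at 71.7, 61.3 and 21.8 CPM in control P6, 0.901, 8.47 and 8.10 in control P10 and 3.27, 4.88 and 3.58 in KO P10. Tspear fell by 3.70 ± 0.53 on the log2 scale (adjusted p = 0.000365). Rap1gap, which switches off the GTPase Rap1, was at 43.8, 57.7 and 93.3 CPM in control P6, 9.01, 19.5 and 20.4 in control P10 and 5.23, 5.49 and 4.29 in KO P10, descending in steps. Rap1gap fell by 3.67 ± 0.39 on the log2 scale (adjusted p = 5.61e-05). Lrtm1 and Wdr72 were lower in KO P10 than in either control group. Wdr72 was at 56.6, 55.6 and 30.9 CPM in control P6, 119, 62.8 and 84.2 in control P10 and 2.61, 4.88 and 8.59 in KO P10. Wdr72 fell by 3.16 ± 0.41 on the log2 scale (adjusted p = 0.000197), beside log2 -4.03 ± 0.40, adjusted p = 8.94e-05 against control P10. Lrtm1 was at 85.2, 20.8 and 42.9 CPM in control P6, 71.2, 70.3 and 124 in control P10 and 2.61, 5.49 and 7.15 in KO P10. Lrtm1 fell by 3.26 ± 0.52 on the log2 scale (adjusted p = 0.00073), and its difference was -2.60 without control P6 library 1. Ush1c (-3.03, and -2.41 without KO P10 library 1, which had 0 UMIs) and Pkhd1 (-2.83) fell too.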

How the data were processed

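The authors deposited 1 table of raw UMI counts per gene and barcode for each library (a count is a molecule, not a read). Per the submitters' processing notes STAR 2.5.2a and the mm10 build were used, and the counting tool, its use of strand and its treatment of introns are not given in the sources used here. Counts outside 29 mitochondrially encoded genes were summed per gene over gated nuclei of each library. No doublet caller was run. All 9 libraries were fitted with edgeR 4.0.16 (R 4.3.3) by group alone, with TMM scaling, its default filter on low counts and the quasi-likelihood test, and p-values were adjusted by Benjamini-Hochberg over all genes tested, at a threshold of 0.05. The standard error of a log2 difference is its size over the square root of the F statistic. The test was checked on simulated counts with independent libraries and the same dispersion for every gene. That check does not cover the differences between the groups in sex, Malat1 or mitochondrially encoded RNA. A second fit set gated against marker-negative nuclei with library as a block. Alternatives were DESeq2 1.42.0, upper-quartile scaling, no filter, a replicate block, the 6 libraries alone, other limits for the gate, Malat1 and depth, shared barcodes left in, and libraries left out. Named were the 12 largest rises and falls without overlap and at least 30 CPM in the higher group, up to 6 members a list by p, 18 genes whatever their values, and 5 genes for each direction of 3 patterns. Predicted and clone gene models, ribosomal, hemoglobin, sex-linked and gate genes were not named by this rule. Some genes that the rule takes are not reported here. The members and lists were chosen with earlier results of these data known. Library depth runs from 1268934 to 3107883 gated UMIs, and sums of a few UMIs carry a wide counting error. Positions are those of GENCODE vM21 (GRCm38).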

Additional observations from a re-analysis of the deposited data

Results flagged for a closer look

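For 19 named genes the difference between KO P10 and control P6 was not the same in gated and marker-negative nuclei of the same libraries, by an interaction test (edgeR, adjusted p under 0.05). The named genes number 158, and over all genes tested 279 of 12256 (2.28%) passed. Most named genes were chosen by their values in these same gated nuclei, so the count of 19 is not a result. The values are the log2 difference in gated nuclei minus that in marker-negative nuclei. It was positive for Lama3 (3.49), Ryr3 (3.05), Gpm6a (2.55), Nespas (1.97), Thbs1 (1.83), Eln (1.16), Kcnd2 (1.14), Itgb1 (1.12), Fhl1 (1.02), Ctnnb1 (0.96) and Igf1r (0.81). Itgb1 was at 746, 775 and 904 CPM in control P6 and 687, 1025 and 760.00 in KO P10 in marker-negative nuclei, with overlap, against separate groups in gated nuclei. It was negative for Coq8a (-2.27), Tnnc1 (-2.19), Myh6 (-1.81), Tnni1 (-1.59), Nppb (-1.47), Ak1 (-1.45), Vldlr (-1.28) and Nmrk2 (-1.25). Myh6, which did not pass in gated nuclei, was at 2095, 1769 and 2514 CPM in control P6 and 5306, 9003 and 6112 in KO P10 in marker-negative nuclei, and Tnnc1, which fell in gated nuclei, at 879.7, 1145 and 1517 CPM in control P6 and 888, 2621 and 2162 in KO P10. Markers of cardiomyocytes made up more of the marker-negative UMIs in KO P10 than in control P6, and their part in the negative values was not tested.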

How the results depend on the processing

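Of 23 alternatives for KO P10 against control P6, most kept both counts within 1.5 times of 1096 higher and 1464 lower genes. Leaving out nuclei with 2 or more UMIs of other lineages (erythroid markers not counted, chosen after seeing the data) left 145, 645 and 355 nuclei in the KO P10 libraries and gave 563 and 730, and the Xist-rich libraries alone 918 lower genes. The filter on other lineages left 694, 897 and 903 nuclei in the control P6 libraries, so it cut the groups unequally. With 1 library left out there were 570 to 1560 higher and 945 to 1783 lower genes. Control P10 against control P6 gave 2388 calls, 1295 without nuclei of other lineages, and 1042 to 2944 with 1 library left out. KO P10 against control P10 gave 1046, 152 in the Xist-rich libraries, 632 without nuclei of other lineages, and 195 to 1395 with 1 library left out. The difference between kinds of nuclei passed for 279 genes, for 177 with no filter on low counts, and for 125 to 320 with 1 library left out. Nppb, which had a call in the full fit, turned from 2.19 to -0.088 in the Xist-rich libraries, and the cause was not tested. Of the named genes, 33 lost their call there, 30 without control P6 library 3, and 22 each without control P6 library 2 and KO P10 library 2. With the replicate number as a block there were 1175 higher and 1511 lower genes. Deviations from the group mean had correlations of -0.146 to 0.212 between same-numbered libraries and -0.353 to 0.332 between libraries of different number. With 3 libraries a group these values cannot tell whether same-numbered libraries share more than a number. A further alternative that also removed nuclei with erythroid UMIs was not run, since it left 10, 3 and 38 nuclei in the KO P10 libraries. Depth limits genes with few UMIs, such as Cacna1h and Gdf15.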

Other observations

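In marker-negative nuclei, 273 of 5215 genes (5.23%) were higher and 278 (5.33%) lower in KO P10 than in control P6. Subunits of the respiratory chain and ATP synthase were lower there too, with 18 of 56 falling and 0 rising (median -0.51), and cell cycle genes with 5 of 26 falling and 0 rising. Contractile genes went up, with 15 of 24 higher and 0 lower, beside 5 higher and 4 lower of 26 in gated nuclei. Genes of the tricarboxylic acid cycle gave 0 rises and 1 fall among 25.

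Of 79 cytoplasmic ribosomal protein genes, 2 rose and 14 fell in KO P10 against control P6 (median -0.36), and 0 rose and 58 fell in control P10 against control P6 (median -1.25). KO P10 against control P10 had 29 higher and 1 lower (median 0.86). They made up 0.873% to 1.03% of gated UMIs in control P6, 0.236% to 0.626% in control P10 and 0.682% to 0.967% in KO P10. Gene length went with the direction of the calls: of tested genes with gene bodies of up to 11563 bases 5.25% were higher and 18.9% lower in KO P10 than in control P6, and of those of 72771 bases or more 15.2% were higher and 12.8% lower. Among the latter 22.8% were higher in control P10 than in control P6, and 9.76% were lower in KO P10 than in control P10. Among those of up to 11563 bases 25.3% were lower in control P10 than in control P6, and 7.76% were higher in KO P10 than in control P10. Gene models named only by a predicted, clone or pseudogene symbol numbered 1378 among the genes tested, of which 89 rose and 340 fell.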
